A study of Mus musculus with 24 samples.

Results

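The genes of mitochondrial and peroxisomal fatty acid oxidation were compared between an obese and a lean mouse strain in white fat, brown fat and muscle. The set held 32 genes named by their function, from the carnitine shuttle to the peroxisomal enzymes. A gene entered if a probe carrying its symbol was well above background on all arrays used of at least 1 group. This held for 42 of the 43 probes and for all 32 genes, out of 33375 probes and 23304 gene names on the array that met the same rule. The probe that did not pass was the second one of Acot3. RNA came from male NZO mice (NZO/HiBomDife, New Zealand Obese, which become obese and diabetes-prone) and male B6 mice (C57BL/6, lean), both fed a diet with 45% fat. The labels give 6 weeks of age for the sampled mice. In order, the groups were NZO and B6 gonadal white fat (gWAT), NZO and B6 brown fat (BAT), and NZO and B6 skeletal muscle, whose titles name the quadriceps. Each had 4 single-colour Agilent arrays, and 1 B6 muscle array (011) was left out, so that 23 of the 24 arrays were used. Both strains received the same diet, and groups on another diet were not analysed here. Since no label ties an array to an animal, the p-values speak only of the spread among arrays of a group, part of which may be technical. In a tissue sample, fewer cells of a type and less RNA per cell cannot be told apart.

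Long-chain fatty acids enter mitochondria as carnitine esters, made by Cpt1 on the outer membrane and turned back to acyl-CoA by Cpt2 on the inner one. Each turn of beta-oxidation then uses an acyl-CoA dehydrogenase, a hydratase, a hydroxyacyl-CoA dehydrogenase and a thiolase, and the electron transfer flavoprotein carries the electrons of the dehydrogenase step to the respiratory chain. Peroxisomes shorten very long and branched chains with acyl-CoA oxidases, and thioesterases release free fatty acids from acyl-CoA. Brown fat burns fatty acids for heat, muscle burns them for work, and white fat mainly stores them.

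Levels are on a log2 scale on which 0 is the 75th percentile of the processed signals of that array, and differences are on the same scale. Values of a group are listed in the array order 009, 012, 003, 007 for NZO gWAT, 009, 011, 003, 007 for NZO BAT and NZO muscle, 010, 011, 015, 009 for B6 gWAT and B6 BAT, and 010, 015, 009 for B6 muscle. A gene is called where the Benjamini-Hochberg adjusted p of the limma fit over all probes tested was under 0.05, and is given by its brightest passing probe (probe 1). Across arrays, 51.9% to 59.3% of probes were well above background. The left-out B6 muscle array correlated at 0.957 to 0.966 with the other B6 muscle arrays, against 0.978 to 0.986 among those, and had Adipoq, the adiponectin gene of fat cells, at 7.02 against 2.64 to 3.59. Marker genes of other cells differed between groups, as shown in the plot of marker levels. The 8 brown adipocyte markers had a summed level of 6.78 to 7.59 in NZO gWAT and 4.28 to 5.26 in B6 gWAT, the 8 macrophage markers 7.78 to 8.10 in NZO gWAT and 6.18 to 6.51 in B6 gWAT, and the 10 muscle fibre markers 0.82 to 3.17 in NZO BAT and 7.88 to 9.97 in B6 BAT. The part of these other cells in the strain differences was not tested. The defining markers of each labelled tissue were well above background: Adipoq lay at 8.27 to 9.05 in NZO gWAT and 8.70 to 9.12 in B6 gWAT, Ucp1, the uncoupling protein of brown fat, at 9.82 to 10.19 in NZO BAT and 10.19 to 10.53 in B6 BAT, and Tnnc2, the troponin C of fast muscle, at 10.80 or above in NZO muscle and 11.02 or above in B6 muscle.

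**Figure D1:**
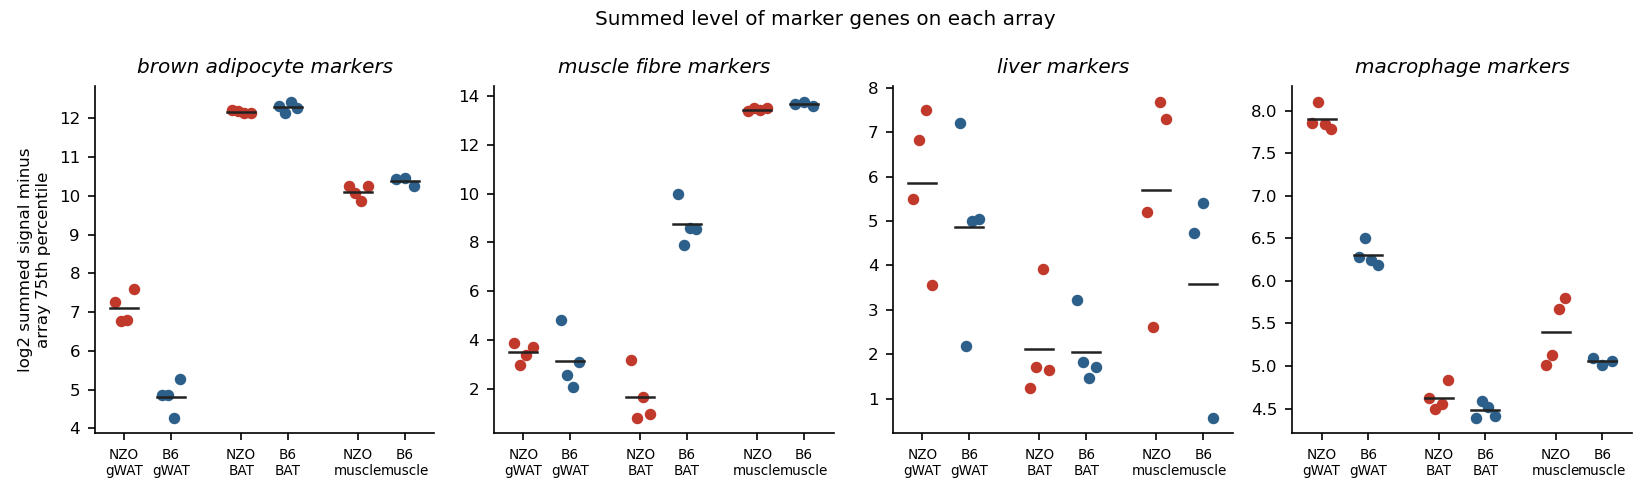
Summed level of 4 marker lists on each array used (points; log2 of the summed signal minus the 75th percentile of the array), with the group mean as a line and NZO left of B6 in each tissue. Brown adipocyte and macrophage markers were higher in NZO gWAT than in B6 gWAT, muscle fibre markers were lower in NZO BAT than in B6 BAT, and liver markers lay between 3.57 and 7.51 among the NZO gWAT arrays alone.

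The probes behind the main results are shown by the first 30 of their 60 bases, 5′ to 3′. Among the genes shown, the strain values of Acox3 turned on which probe was read. Positions are on mm9 as the files give them, and the files do not say in which exon or untranslated region a probe lies.
Cpt1b probe 1 (chr15:89246836-89246895, minus strand): ttggagagcgctgtccaacctctcatgtgc
Cpt1b probe 2 (chr15:89247106-89247165, minus strand): tgctcctctagggcccccgctggaggtggg
Acadl probe 1 (chr1:66877673-66877732, minus strand): gtcttacttgtctttcaaattctgaagagc
Acox2 probe 1 (chr14:9058141-9058200, minus strand): tggcgtgcggcttgttcagatcagcgagta
Acot11 probe 1 (chr4:106417185-106417244, minus strand): gttgctacctcattctcttaagagttcagc
Acox3 probe 1 (chr5:35952411-35952470, plus strand): agatgtcatcgccccctccgactttgttct
Acox3 probe 2 (chr5:35956215-35956274, plus strand): aaccagacttagatgggtgatatcacatga
Acox3 probe 3 (chr5:35954432-35954491, plus strand): gctcccatcaggcttgcttttatggcactt
Whether NZO mice carry sequence changes beneath any of these probes was not tested.

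In white fat the fatty acid oxidation genes moved in both directions. Cpt1b, the carnitine palmitoyltransferase of muscle and brown fat, was 9.34-fold higher in NZO than in B6, and Cpt1a, its counterpart in liver and white fat, was 1.48-fold higher. Hadhb, the thiolase subunit of the mitochondrial trifunctional protein, was 1.58-fold higher in NZO. Acadl, the long-chain acyl-CoA dehydrogenase, was 1.99-fold lower, and Acad10, another member of that dehydrogenase family, was 1.68-fold lower. Of the 32 genes tested, 5 were higher, 5 were lower and 22 did not pass, against 31.1% of all genes tested that were called in either direction (16.5% higher and 14.5% lower). The count of called fatty acid oxidation genes was thus near that of all genes, and their median difference of 0.04 lay beside 0.02 for all genes. On 8 of the 32 genes the strains did not overlap, which held for 35.5% of all genes.

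In the carnitine shuttle, Cpt1b lay at 1.14, 0.96, 0.98 and 1.22 in NZO gWAT, against -2.09, -2.38, -2.27 and -1.85 in B6 gWAT. All NZO arrays were far above all B6 arrays, with a difference of 3.22 (SE 0.14, adjusted p = 3.52e-06), and its second probe differed by 2.78 (SE 0.14, adjusted p = 6.84e-06). On slides 4 and 6, which carried both strains, the Cpt1b difference was 3.07 and 3.33. Slide 4 held 1 NZO and 1 B6 gWAT array, and slide 6 held 2 NZO and 1 B6. Brown adipocyte markers moved with it: Ucp1 was at 3.78 to 4.21 in NZO gWAT and -4.58 to -3.10 in B6 gWAT, and of the 8 such markers 6 were called higher, 1 (Ppargc1a, a coactivator of mitochondrial genes) was called lower and 1 did not pass. Muscle fibre markers, from the other tissue rich in Cpt1b, had summed levels that overlapped (2.99 to 3.87 in NZO gWAT and 2.05 to 4.80 in B6 gWAT). Of the 8 tested there, 2 were called higher and 0 lower. The part of either cell type in the Cpt1b difference was not tested. Cpt1a lay at 3.91, 3.57, 3.53 and 3.90 in NZO gWAT, against 3.33, 3.01, 3.09 and 3.24 in B6 gWAT. The strains did not overlap, and the difference was 0.56 (SE 0.14, adjusted p = 0.0153). Within slides 4 and 6 the Cpt1a difference was 0.66 and 0.63. With the slide as a block, fitted over all groups, it was 0.56 and the call was lost (adjusted p = 0.0729). The second probe, at 0.39 (SE 0.14, adjusted p = 0.0668), did not pass. Crat, which moves acetyl groups to and off carnitine, was lower by contrast, at -0.53 (SE 0.15, adjusted p = 0.0306). Cpt2 (-0.10), Cpt1c, the brain form of the enzyme (-0.01), and Crot, the peroxisomal octanoyltransferase (-0.20), did not pass.

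Among the acyl-CoA dehydrogenases, Acadl lay at 2.74, 2.02, 2.14 and 2.60 in NZO gWAT, against 3.40, 3.31, 3.33 and 3.42 in B6 gWAT. Every NZO array was below every B6 array, and the NZO arrays were also more spread, with a difference of -0.99 (SE 0.17, adjusted p = 0.00351). Acad10 lay at 2.33, 2.30, 2.20 and 2.43 in NZO gWAT, against 2.95, 3.18, 3.10 and 3.04 in B6 gWAT, without overlap (difference -0.75, SE 0.10, adjusted p = 0.00106). On slides 4 and 6 the difference was -0.82 and -0.89 for Acadl and -0.62 and -0.83 for Acad10. The other 4 of this group, Acadm, Acads, Acadvl and Acad11, which handle medium, short, very long and other chains, had differences of -0.07 to 0.27 and did not pass. The Acadl and Acad10 calls each held in 14 of 15 alternatives, quantile normalization among them. Both were lost when arrays were centred on the median in place of the 75th percentile. The median difference of all genes was then 0.28 in place of 0.02, Acadl differed by -0.73 (adjusted p = 0.0524) and Acad10 by -0.49 (adjusted p = 0.0561). With that centring 6 of the 32 genes were called higher and 0 lower. With quantile normalization 5 were higher and 9 lower, and Hadh, Echs1, Hsd17b4, Acaa1a and Acaa1b were then called lower. With median centring, 75% of all called genes were higher, against 53.3% with the 75th percentile.

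Of the later steps, Hadhb lay at 6.60, 6.12, 6.07 and 6.63 in NZO gWAT, against 5.72, 5.67, 5.56 and 5.85 in B6 gWAT. The strains did not overlap (difference 0.66, SE 0.16, adjusted p = 0.0170; 0.79 on slide 4 and 0.78 on slide 6). Hadha, its partner in the trifunctional protein, lay at 2.86, 2.75, 2.60 and 3.07 in NZO gWAT, against 2.52, 2.49, 2.11 and 2.55 in B6 gWAT. All its NZO arrays were also above all its B6 arrays, but its difference of 0.40 (SE 0.15, adjusted p = 0.0716) did not pass. Hadha was called with median centring (0.66, adjusted p = 0.0377), normexp background correction (0.37, adjusted p = 0.0254), the deposited series table (0.35, adjusted p = 0.0330) and the slide as a block (0.49, adjusted p = 0.0268). Hadh, Echs1, Acaa2 and Decr1, which carry out the hydroxyacyl-CoA dehydrogenase, hydratase, thiolase and dienoyl-CoA reductase steps, differed by -0.47 to 0.27 and did not pass. Etfa and Etfb, the subunits of the electron transfer flavoprotein, and Etfdh, which passes its electrons to ubiquinone, differed by 0.06 to 0.33 and did not pass. Another Etfb probe (probe 3) was called at 0.58 (SE 0.17, adjusted p = 0.0317), and that call was lost without NZO 009 or 007 or without B6 010, 011 or 015 (adjusted p up to 0.0816).

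Among thioesterases, Acot11, the brown fat-inducible thioesterase, lay at -0.91, -1.05, -0.94 and -1.06 in NZO gWAT, against -2.31, -2.36, -1.02 and -2.07 in B6 gWAT. B6 array 015 lay among the NZO arrays, and the difference of 0.95 (SE 0.28, adjusted p = 0.0335) was lost when any 1 of the NZO arrays, or B6 010, 011 or 009, was left out (adjusted p up to 0.0900). On slide 6, which holds that B6 array, the Acot11 difference was 0.10, against 1.01 on slide 4. Acot3, a peroxisomal thioesterase, lay at -5.24, -4.16, -4.64 and -4.76 in NZO gWAT, against -3.88, -3.68, -4.16 and -3.90 in B6 gWAT. It was well above background on 2 of 4 NZO arrays, and its difference of -0.80 (SE 0.22, adjusted p = 0.0280) was lost without NZO 009 or 007 or without B6 010, 011 or 009 (adjusted p up to 0.0775), and was -0.03 after normexp background correction. Acot2, the mitochondrial one, differed by -0.54 (SE 0.17, adjusted p = 0.0393), a call lost without NZO 012, 003 or 007 or without B6 010, 015 or 009 (adjusted p up to 0.107). Acot1, the cytosolic one, did not pass (0.65, SE 0.70), but was called at 1.45 (adjusted p = 0.00110) without B6 015, on which it was at 1.71 against -1.80 to -1.23 on the other B6 arrays. Acot1, Acot2 and Acot3 are close copies of each other on chromosome 12, and binding of their RNAs to each other's probes was not tested. The Crat call was lost without NZO 012 or 003 or without B6 010, 011 or 009 (adjusted p up to 0.0801).

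**Figure D2:**
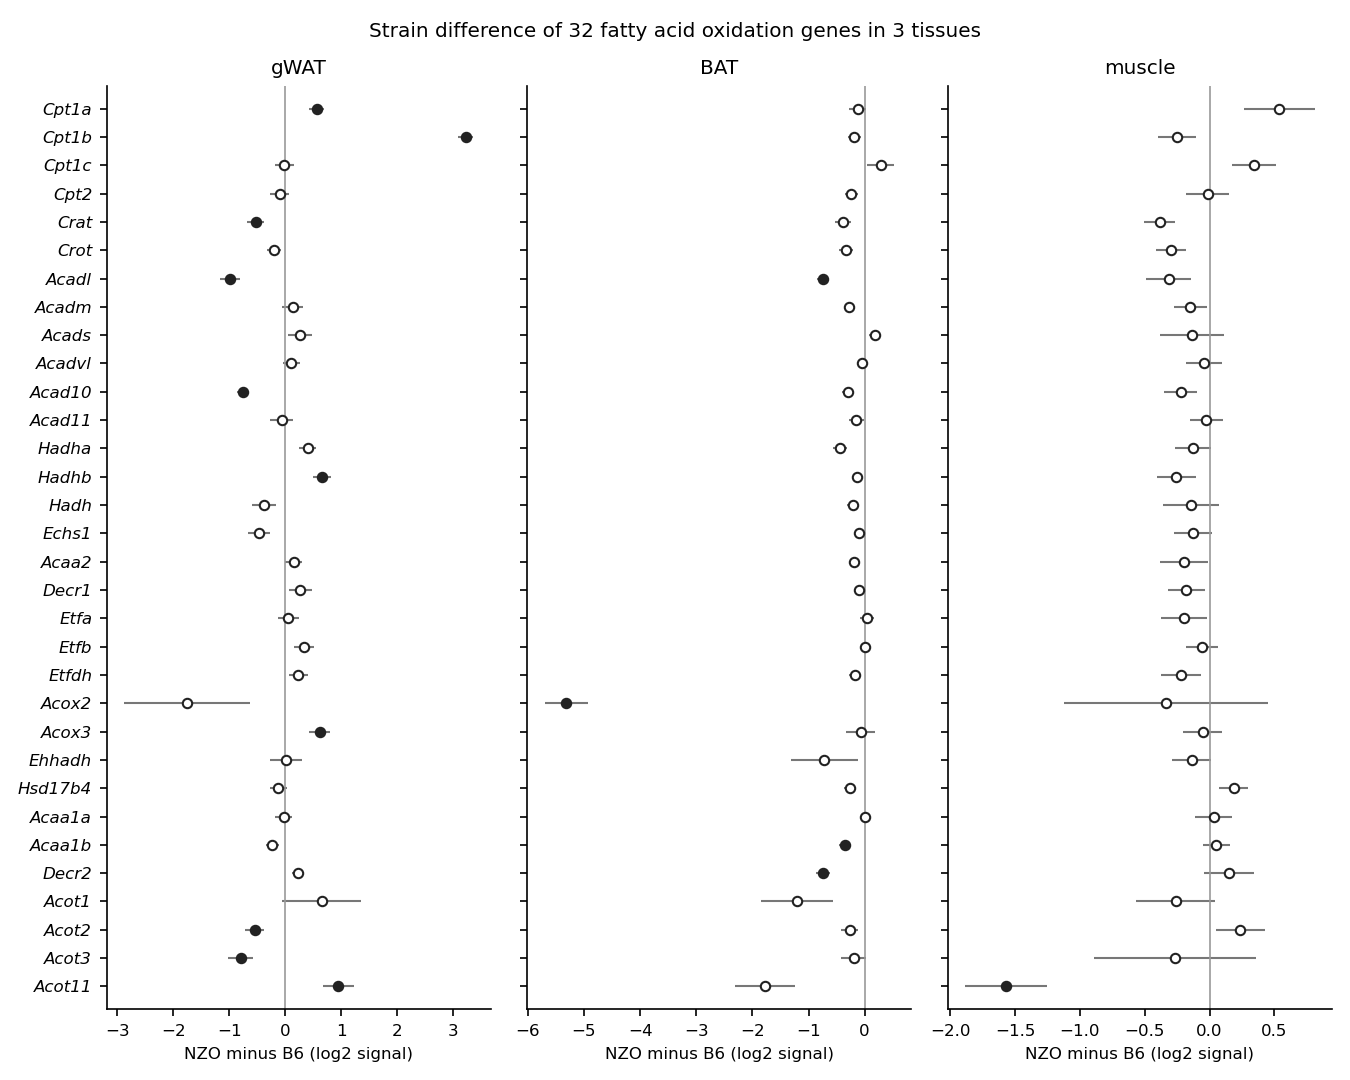
Difference NZO minus B6 (log2 signal, x axis; bars are the SE of the fit) of all 32 genes in gWAT, BAT and muscle, with filled points where the gene was called. The x axes differ between panels. Calls lie on both sides of 0 in gWAT, while the 4 in BAT and the 1 in muscle are lower in NZO.

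In brown fat every called gene was lower in NZO, among them peroxisomal enzymes and a mitochondrial dehydrogenase. Acox2, the branched-chain acyl-CoA oxidase also used in bile acid synthesis, was lower on every NZO array, but was well above background on only 1 of those 4, so that the size of its difference turned on how background was treated. Acadl was 1.68-fold lower, and Decr2, the peroxisomal dienoyl-CoA reductase, was 1.67-fold lower. Of 32 genes tested, 0 were higher, 4 were lower and 28 did not pass, against 15% of all genes called in either direction (7.55% higher and 7.49% lower), so the share called was near that of all genes. With limma's p taken before adjustment, 0 of the 32 were higher and 11 lower at the same threshold, against 14.9% of all genes higher and 13.2% lower. The median difference was -0.20, against 0.01 for all genes, and on 11 of the 32 genes the strains did not overlap, against 21.6% of all genes.

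Acox2 lay at -4.94, -4.01, -5.56 and -5.52 in NZO BAT, against 0.66, -0.10, -0.13 and 0.80 in B6 BAT. It was well above background on 1 of 4 NZO arrays and on all B6 arrays, with no overlap and a difference of -5.32 (SE 0.38, adjusted p = 5.46e-05). On the only slide that held both strains, with 1 BAT array of each, the Acox2 difference was -5.39. The direction for Acox2 was the same in all alternatives, but the size was not: the difference was -1.88 after normexp background correction and -2.59 in the deposited series table. Liver transcripts, among which Acox2 is abundant, had summed levels that overlapped between strains in BAT (1.23 to 3.91 in NZO BAT and 1.47 to 3.23 in B6 BAT). The part of liver RNA in the Acox2 difference was not tested. The plot of levels by array shows the separation of Acox2 in BAT beside its wide spread in gWAT and muscle.

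Acadl lay at 5.82, 5.79, 5.65 and 5.57 in NZO BAT, against 6.48, 6.59, 6.36 and 6.37 in B6 BAT. All NZO arrays were below all B6 arrays (difference -0.75, SE 0.10, adjusted p = 0.00164; -0.79 within the shared slide). Decr2 lay at 2.69, 2.69, 2.56 and 2.41 in NZO BAT, against 3.59, 3.25, 3.38 and 3.11 in B6 BAT, again without overlap (difference -0.74, SE 0.13, adjusted p = 0.00557). Acaa1b, a peroxisomal thiolase with a near copy in Acaa1a, lay at 4.09, 4.09, 4.19 and 4.03 in NZO BAT, against 4.46, 4.30, 4.64 and 4.42 in B6 BAT. Its difference of -0.35 (SE 0.10, adjusted p = 0.0472) was lost when any 1 of the NZO arrays, or B6 010, 015 or 009, was left out (adjusted p up to 0.121), and Acaa1a differed by -0.00. Muscle fibre transcripts moved the same way: Tnnc2 lay at -1.06 to 1.21 in NZO BAT, against 6.04 to 8.05 in B6 BAT. Between the B6 tissues, Acox2 was lower in muscle than in BAT by 2.96, Acadl by 2.37 and Decr2 by 3.62 on the log2 scale. The part of muscle RNA in the BAT strain differences was not tested.

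Other genes of brown fat came close or differed by probe. Acot11 lay at 4.67, 6.59, 3.65 and 5.42 in NZO BAT, against 6.90, 6.72, 6.74 and 7.06 in B6 BAT; all NZO arrays were lower and far more spread, and the difference of -1.78 (SE 0.54, adjusted p = 0.0620) did not pass. Acot11 was called with median centring (adjusted p = 0.0423), normexp background correction (0.0395), the deposited series table (0.0410), the slide as a block (-2.23, adjusted p = 0.00682) and without NZO 011 (-2.28, adjusted p = 0.00819). Hadha differed by -0.43 (SE 0.12, adjusted p = 0.0524) and did not pass either, except without NZO 007 (-0.50, adjusted p = 0.0398). Decr1 differed by -0.10 at its bright probe, while probe 2 was called at -0.61 (SE 0.15, adjusted p = 0.0253), a call lost without NZO 009 or without B6 011, 015 or 009 (adjusted p up to 0.0655). Cpt1b lay at 6.20, 6.46, 6.04 and 6.04 in NZO BAT, against 6.37, 6.35, 6.47 and 6.29 in B6 BAT, and its difference of -0.18 (SE 0.12) did not pass.

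**Figure D3:**
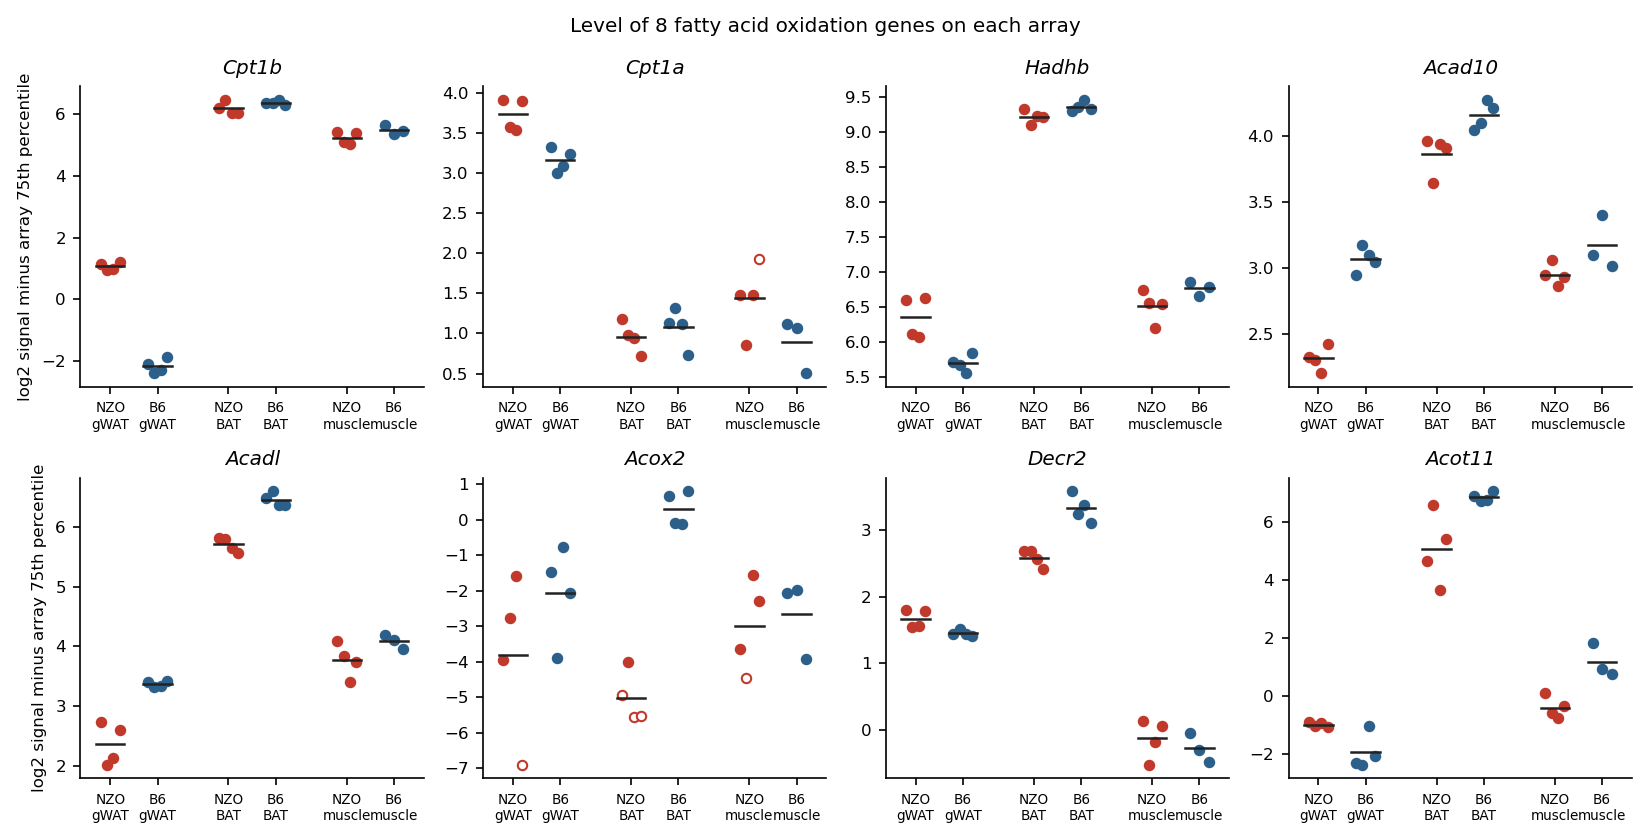
Level of 8 genes on each array used (points; log2 signal minus the 75th percentile of the array), with the group mean as a line, NZO left of B6 in each tissue, and open points where the spot was not well above background. Cpt1b separates the strains in gWAT, Acox2 and Decr2 separate them in BAT, Acadl in both fat tissues, and Acot11 lies lower in NZO muscle.

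In muscle, Acot11 alone was called: 0 genes were higher, 1 was lower and 31 did not pass, against 10.3% of all genes called (4.42% higher and 5.91% lower). Before adjustment of limma's p, 0 were higher and 3 lower, against 11.2% of all genes higher and 15.4% lower. Acot11 lay at 0.11, -0.58, -0.77 and -0.34 in NZO muscle, against 1.84, 0.92 and 0.76 in B6 muscle. The strains did not overlap, and the difference was -1.57 (SE 0.31, adjusted p = 0.0216). The call was lost without NZO 011, 003 or 007 or without B6 010 (adjusted p up to 0.0577). Acot11 is abundant in brown fat, and the brown fat marker Ucp1 varied among the muscle arrays. Ucp1 lay at 2.94, 0.66, 1.84 and -0.17 in NZO muscle, against 5.14, 3.56 and 0.81 in B6 muscle. Both Acot11 and Ucp1 were highest on NZO 009 and B6 010 within their groups. The B6 arrays had the same order for both genes, but the other NZO arrays did not. NZO 003 was lowest for Acot11 (-0.77) with Ucp1 at 1.84, and NZO 007 was lowest for Ucp1 (-0.17) with Acot11 at -0.34. The summed level of the 8 brown adipocyte markers varied less, at 10.251, 10.077, 9.873 and 10.253 in NZO muscle. In B6 muscle it was 10.430, 10.472 and 10.267. That sum was highest on NZO 007 and B6 015, not on NZO 009 and B6 010. The part of brown fat RNA in the Acot11 difference was not tested. Cpt1b, the muscle form of the shuttle enzyme, lay at 5.41, 5.08, 5.04 and 5.39 in NZO muscle, against 5.65, 5.36 and 5.44 in B6 muscle, and its difference of -0.25 (SE 0.14) did not pass. Cpt1a, well above background on 3 of 4 NZO arrays there, differed by 0.54 (SE 0.27) and did not pass. The Etfa spot on NZO muscle 007 was an outlier and left out, so its difference of -0.20 used 3 NZO arrays. The median over the 32 genes was -0.14, against -0.04 for all genes, and 3 genes did not overlap, against 27.2% of all genes.

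Whether the strain difference itself changed with the tissue was tested directly. The strain difference in BAT minus that in gWAT was called for 6 of the 32 genes, 1 upward and 5 downward, against 18.3% of all genes (8.52% upward and 9.8% downward). Cpt1b gave -3.41 (SE 0.18, adjusted p = 4.29e-10), since its strains were apart in gWAT and overlapped in BAT. Acot11 gave -2.73 (SE 0.61, adjusted p = 0.00425), being higher in NZO gWAT but lower on all NZO BAT arrays. Decr2, at 1.80, 1.54, 1.57 and 1.78 in NZO gWAT against 1.43, 1.51, 1.44 and 1.41 in B6 gWAT, gave -0.97 (SE 0.19, adjusted p = 0.00188). Hadha, at 5.53, 5.74, 5.40 and 5.81 in NZO BAT against 5.95, 5.99, 6.26 and 6.00 in B6 BAT, gave -0.83 (SE 0.19, adjusted p = 0.00475), and Hadhb, at 9.32, 9.09, 9.23 and 9.21 in NZO BAT against 9.30, 9.36, 9.46 and 9.33 in B6 BAT, gave -0.80 (SE 0.18, adjusted p = 0.00526). Both subunits of the trifunctional protein thus had a more negative strain difference in BAT than in gWAT. Probe 2 of Cpt1a (-0.72, SE 0.23, adjusted p = 0.0364) and of Decr1 (-0.91, SE 0.30, adjusted p = 0.0382) was also called downward, unlike probe 1. These probe 2 calls were lost in 15 and 13 of 31 alternatives. Acad10 gave 0.45 (SE 0.14, adjusted p = 0.0301), a call lost without B6 gWAT 011 or 015, NZO BAT 009 or 003, or B6 BAT 010 or 011 (adjusted p up to 0.0656) and at 0.23 (adjusted p = 0.461) with median centring.

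Hadha and Hadhb lie head to head on chromosome 5. In the RefSeq annotation of GRCm38.p6, Hadha starts at 30154980 on the minus strand and Hadhb at 30155253 on the plus strand, with 272 bases between. The promoter window of Hadha (chr5:30154931-30155230, minus strand, 5′ to 3′) is printed because both genes moved together between the fat tissues. The capitals mark the only match of GGGCGG or CCAAT on either strand, read here as the reverse complement of GGGCGG.
Hadha promoter: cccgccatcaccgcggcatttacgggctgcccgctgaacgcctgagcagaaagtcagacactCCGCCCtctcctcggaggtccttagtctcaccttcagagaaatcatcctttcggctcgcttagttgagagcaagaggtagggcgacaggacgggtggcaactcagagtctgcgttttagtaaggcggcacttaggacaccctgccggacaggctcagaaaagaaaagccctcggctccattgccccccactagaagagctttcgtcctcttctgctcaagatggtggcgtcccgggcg
This window shares 228 bases with that of Hadhb. A match of GGGCGG on either strand was present in 35.7% of all 32851 promoter windows in the table and in 19 of the 27 fatty acid oxidation genes with a window, and one of CCAAT in 37.4% of all windows and in 16 of the 27. The direct repeat made of 2 copies of AGGNCA with 1 base between, the form bound by PPAR receptors, was in 0.381% of all windows and in 0 of the 27, searched on both strands.

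The strain difference in muscle minus that in gWAT was called for 6 genes, 3 upward and 3 downward, against 19.8% of all genes (7.73% upward and 12.1% downward). Cpt1b gave -3.47 (SE 0.19, adjusted p = 4.56e-10), Acot11 -2.52 (SE 0.63, adjusted p = 0.00992) and Hadhb -0.91 (SE 0.19, adjusted p = 0.00299). Hadhb lay at 6.74, 6.56, 6.21 and 6.55 in NZO muscle, against 6.86, 6.66 and 6.79 in B6 muscle, where the strains overlapped. Upward were Acot2 at 0.78 (SE 0.25, adjusted p = 0.0356), Acadl at 0.68 (SE 0.22, adjusted p = 0.0375) and Acad10 at 0.53 (SE 0.15, adjusted p = 0.0172). Acot2 lay at -1.40, -1.90, -1.89 and -1.53 in NZO gWAT, against -0.93, -1.44, -1.15 and -1.02 in B6 gWAT. In muscle it lay at -0.84, -1.32, -0.87 and -0.91 in NZO, against -0.93, -1.19 and -1.55 in B6. With median centring, which moved the median of all genes to -0.33, in place of -0.06, these upward values were 0.51, 0.40 and 0.25, none of them called. Without B6 muscle 009 the count was 3, with Acad10 at adjusted p = 0.0568, Acadl at 0.0920 and Acot2 at 0.111 no longer called. The Acad10 call was also lost without B6 muscle 010, and those of Acadl and Acot2 in 11 and 10 of the 23 fits that left out 1 array. Between muscle and BAT, 2 genes were called, both upward, against 5.69% of all genes (2.48% upward and 3.2% downward). Decr2 gave 0.89 (SE 0.20, adjusted p = 0.0121), at 0.13, -0.53, -0.20 and 0.06 in NZO muscle against -0.06, -0.30 and -0.49 in B6 muscle. That call was lost with median centring (0.84, adjusted p = 0.172) and with the left-out B6 muscle array kept (0.72, adjusted p = 0.0956). Acox2 gave 4.98 (SE 1.32, adjusted p = 0.0324), a call lost without NZO muscle 003 or 007, B6 muscle 010 or 009, NZO BAT 009 or 003, or B6 BAT 010 or 009 (adjusted p up to 0.104). That value rests on the NZO BAT arrays, of which 1 of 4 was well above background, and was 1.71 after normexp background correction and 2.37 in the deposited series table. For muscle minus gWAT, probe 2 of Acox3 was called at -0.58 (SE 0.14, adjusted p = 0.00784), a call lost in 1 of 31 alternatives. For muscle minus BAT, probe 2 of Cpt1a was called at 1.01 (SE 0.24, adjusted p = 0.0177), a call lost in 6 of 31. Probe 1 of these genes was not called there. The comparisons of strain differences share the arrays of a tissue with each other.

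Acox2 outside brown fat varied widely among the arrays of each strain. It lay at -3.96, -2.78, -1.59 and -6.90 in NZO gWAT, against -1.47, -3.90, -0.78 and -2.06 in B6 gWAT, and at -3.65, -4.47, -1.56 and -2.28 in NZO muscle, against -2.07, -1.97 and -3.92 in B6 muscle. Neither difference passed (-1.75, SE 1.12, in gWAT and -0.34, SE 0.79, in muscle). Liver transcripts varied over the same arrays: Alb, the albumin gene, lay at 2.57, 4.14, 4.91 and -0.25 in NZO gWAT, against 4.92, -1.23, 2.80 and 2.68 in B6 gWAT, and at 2.70, -0.03, 5.44 and 4.76 in NZO muscle, against 2.29, 3.38 and -2.19 in B6 muscle. The NZO gWAT and NZO muscle arrays had the same order for both genes, and B6 gWAT 011 and B6 muscle 009 were lowest in both. The part of liver RNA in these levels was not tested.

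Acox3, the pristanoyl-CoA oxidase of peroxisomes, gave opposite strain differences by probe. Probe 1 lay at 2.32, 2.35, 2.14 and 2.83 in NZO gWAT, against 1.47, 1.73, 1.81 and 2.18 in B6 gWAT, with some overlap (0.61, SE 0.20, adjusted p = 0.0448). Probe 2 lay at 2.87, 2.68, 2.68 and 2.86 in NZO gWAT, against 2.24, 2.28, 2.51 and 2.28 in B6 gWAT, without overlap (0.44, SE 0.11, adjusted p = 0.0179). The Acox3 call of probe 1 was lost without NZO 009, 012 or 007 or without B6 010, 011 or 015 (adjusted p up to 0.116) and that of probe 2 without B6 010 or 011 (adjusted p up to 0.0614). Probe 3 went the other way, at -0.99, 0.06, 0.21 and -1.06 in NZO gWAT, against 1.13, 1.23, 1.88 and 1.58 in B6 gWAT (-1.90, SE 0.33, adjusted p = 0.00358). It was lower in NZO in the other tissues too, at 0.93, 1.01, 0.94 and 0.66 in NZO BAT against 2.17, 2.15, 2.13 and 2.31 in B6 BAT (-1.30, SE 0.10, adjusted p = 0.000101), and at -0.71, -1.23, -2.21 and -1.52 in NZO muscle against 0.01, 0.08 and -0.01 in B6 muscle (-1.45, SE 0.32, adjusted p = 0.0316). The muscle value was lost without NZO 011 or 007 or when any 1 B6 muscle array was left out (adjusted p up to 0.110). In BAT and muscle probes 1 and 2 differed by -0.14 to 0.23 and did not pass. Probes 1 and 2 carry the RefSeq accession of Acox3 and probe 3 that of a cDNA clone, and probe 3 maps between them on the same strand, as listed among the probes above. Whether the difference lies in a transcript form or in the sequence under the probe was not tested.

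**Figure D4:**
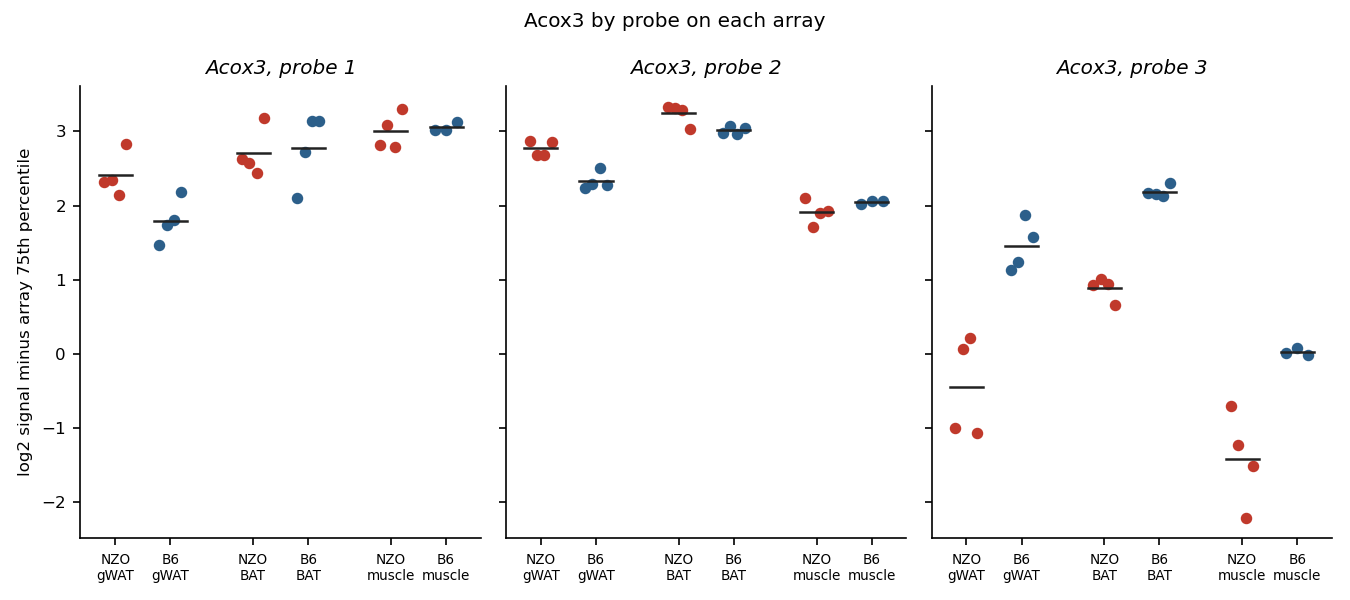
Level of the 3 Acox3 probes on each array used (points; log2 signal minus the 75th percentile of the array), with the group mean as a line and NZO left of B6. Probe 3 was lower in NZO in every tissue without overlap, while probes 1 and 2 were higher in NZO gWAT and overlapped or lay close in BAT and muscle.

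Most of these genes differed more between tissues than between strains in size. In BAT against gWAT, 24 of 30 genes were higher and 2 lower in NZO, where 65.9% of all genes were called (37.8% higher and 28% lower), and 28 of 32 were higher and 2 lower in B6, where 59.3% were called (33.3% higher and 26% lower). The median difference was 1.94 in NZO and 2.06 in B6, against 0.20 for all genes in NZO and 0.11 in B6. All 6 dehydrogenases, all 6 later-step enzymes and all 3 electron transfer genes were higher in BAT in both strains. Acot11 led with 6.07 (SE 0.43) in NZO and 8.80 (SE 0.43) in B6, followed by Cpt1b with 5.11 (SE 0.13) in NZO and 8.52 (SE 0.13) in B6, and Acaa2, the mitochondrial thiolase, with 3.48 (SE 0.14) in NZO and 3.82 (SE 0.14) in B6. Acadl gave 3.33 (SE 0.15) in NZO and Hadhb 3.66 (SE 0.13) in B6. The 2 lower genes were the same in both strains: Cpt1a, at -2.78 (SE 0.19) in NZO and -2.09 (SE 0.19) in B6, and Cpt1c, at -1.37 (SE 0.20) in NZO and -1.66 (SE 0.20) in B6. Cpt1c kept its call in all 32 alternatives, but its size did not hold. It ranged from -1.82 to -0.40 in NZO and from -1.88 to -0.43 in B6. Acox2 and Acot3 were not tested in NZO because neither fat group had all arrays above background. With median centring 20 genes were higher and 2 lower in NZO and 25 were higher and 2 lower in B6, while the share of all called genes that were higher was 31.8% in NZO, in place of 57.4%, and 42.7% in B6, in place of 56.1%.

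Muscle had lower levels than BAT for most of the set, with 3 genes higher and 24 lower of 31 in NZO, where 63.8% of all genes were called (27.9% higher and 35.9% lower), and 1 higher and 26 lower of 32 in B6, where 62.1% were called (29.8% higher and 32.4% lower). The largest decreases were Acot11 (-5.48, SE 0.43, in NZO and -5.69, SE 0.46, in B6) and Ehhadh, the peroxisomal bifunctional enzyme (-3.40, SE 0.44, in NZO and -3.99, SE 0.47, in B6). Decr2 gave -2.72 (SE 0.14) in NZO and -3.62 (SE 0.15) in B6, Echs1 -2.75 (SE 0.15) in NZO and Acox2 -2.96 (SE 0.97) in B6, the last lost without B6 muscle 009 (adjusted p = 0.0751). Cpt1c was higher in muscle, by 1.19 (SE 0.20) in NZO and 1.12 (SE 0.22) in B6, and in NZO so were Cpt1a (0.48, SE 0.19, adjusted p = 0.0338) and Crot (0.27, SE 0.11, adjusted p = 0.0448). The calls of Cpt1a and Crot in NZO were lost in 9 and 16 of 32 alternatives. That of Cpt1c was kept in all 32, with a size from 0.40 to 1.42 in NZO and from 0.35 to 1.30 in B6.

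Muscle against gWAT gave calls in both directions. Of 31 genes 12 were higher and 8 lower in NZO, where 70.2% of all genes were called (35.8% higher and 34.4% lower), and of 32 genes 12 were higher and 10 lower in B6, where 69.5% were called (35.9% higher and 33.6% lower). Of the peroxisomal genes, 5 of 6 were lower in NZO and 5 of 7 in B6. The lowest were Ehhadh (-2.71, SE 0.44, in NZO and -2.56, SE 0.47, in B6), Cpt1a (-2.29, SE 0.19, in NZO and -2.27, SE 0.21, in B6), Decr2 (-1.81, SE 0.14, in NZO and -1.73, SE 0.15, in B6) and Acaa1b (-1.47, SE 0.10, in NZO and -1.75, SE 0.10, in B6). The highest were Cpt1b (4.16, SE 0.13, in NZO and 7.63, SE 0.14, in B6), Crat (1.70, SE 0.14, in NZO and 1.56, SE 0.15, in B6) and Acadvl, the very-long-chain dehydrogenase (1.21, SE 0.12, in NZO and 1.36, SE 0.13, in B6), with Acadl at 1.39 (SE 0.15) in NZO and Acot11 at 3.11 (SE 0.46) in B6. With median centring the split in NZO was 4 higher and 16 lower, with 32% of all called genes higher in place of 51%, and in B6 it was 11 and 10, with 45% of all called genes higher in place of 51.6%.

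**Figure D5:**
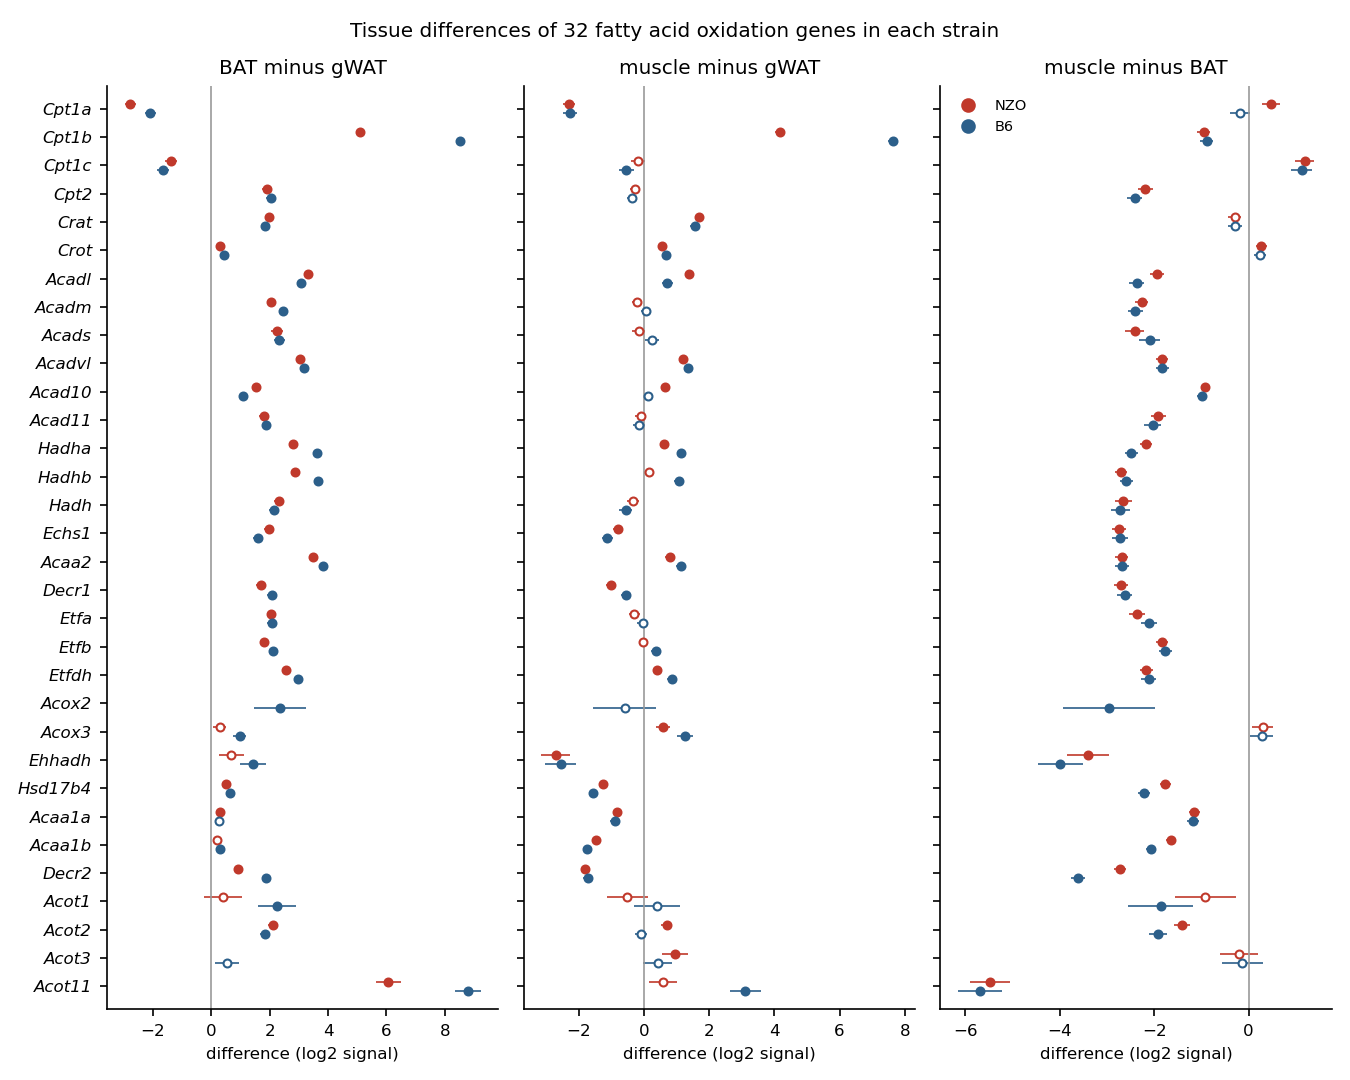
Tissue differences (log2 signal, x axis; bars are the SE of the fit) of the 32 genes, with NZO above B6 in each row and filled points where the gene was called. Most genes are higher in BAT than in gWAT and lower in muscle than in BAT. Cpt1a and Cpt1c are lower in BAT than in gWAT in both strains, and Cpt1c is higher in muscle than in BAT in both, while Cpt1a and Crot were called higher there in NZO alone.

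Other genes of the pathway, 72 listed for their roles in activation, carnitine supply, further oxidation steps, regulation and PPAR response, are given for context. In gWAT 10 of 68 tested were higher in NZO and 14 lower, beside the 16.5% of all genes higher and 14.5% lower there. The higher ones included 7 of 11 PPAR target genes, among them Fabp3, a fatty acid carrier of heart and brown fat (3.06, SE 0.33), Plin5, a droplet protein of oxidative tissue (2.08, SE 0.24), and Fgf21, a hormone of fasting (3.75, SE 0.58), which was well above background on 1 of 4 B6 arrays. The lower ones were led by Acaca, the acetyl-CoA carboxylase that makes malonyl-CoA, the inhibitor of Cpt1 (-1.87, SE 0.18), Acsm5, a medium-chain activating enzyme (-1.52, SE 0.21), and Klf15, a transcription factor (-1.45, SE 0.12). In BAT 4 of 67 were higher and 10 lower, beside 7.55% of all genes higher and 7.49% lower. Acsm5 (0.98, SE 0.24), Oxct1, which uses ketone bodies (0.66, SE 0.11), and Slc25a29, a mitochondrial carrier (0.57, SE 0.10), were higher in NZO BAT. Acsl5, a long-chain activating enzyme (-2.15, SE 0.36), Klf15 (-1.41, SE 0.24) and Slc27a2, a very-long-chain activating enzyme (-1.32, SE 0.33), were lower there. In muscle 0 of 67 were higher and 7 lower, beside 4.42% of all genes higher and 5.91% lower. Before adjustment of limma's p, 3 of the 67 were higher and 18 lower, against 11.2% of all genes higher and 15.4% lower. The lower ones were led by Acsm3 (-1.88, SE 0.45), Klf15 (-1.22, SE 0.23) and Ppargc1b, a relative of Ppargc1a (-0.96, SE 0.14). Klf15 was lower in NZO in all 3 tissues.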

How the data were processed

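Total RNA from 24 samples was hybridised to single-colour (Cy3) Agilent mouse arrays. Per the file headers, the authors scanned and extracted the arrays with Agilent Feature Extraction 11.0.1.1, while the submitters' processing notes name version 9.1. The deposited intensity values used were the processed signals, already background-subtracted by that software. The deposited series table holds linear median-signal intensity values without background subtraction, averaged over the spots of each transcript identifier. It was checked against the scanner files at a relative tolerance of 0.0001 and served as an alternative. There, probes of a gene with the same transcript identifier share 1 averaged value, so that alternative does not show such a probe alone. Control spots and spots marked as outliers (0.0136%) were left out, spots of a probe were averaged, and log2 signals were centred on the 75th percentile of each array. B6 muscle array 011 was left out. Probes well above background on all arrays used of at least 1 group compared were fitted with limma 3.58.1 in R 4.3.3, per tissue for strain differences and over all groups otherwise, with Benjamini-Hochberg adjustment over all probes tested and 0.05 as the threshold. Same-numbered arrays of different tissues were not paired in the main fits. Correlations of their deviations between BAT and gWAT were 0.06 to 0.31 in NZO and -0.08 to 0.40 in B6. Those between muscle and gWAT were -0.25 to 0.06 in NZO and 0.08 to 0.33 in B6. Those between muscle and BAT were -0.14 to 0.13 in NZO and -0.12 to 0.07 in B6. Whether same-numbered arrays came from the same animal was not tested. The number of arrays limits the precision. Each gene is given by whichever passing probe was brightest on average across the 23 arrays. Called genes are described per array for the largest differences, and other pathway genes are named up to 3 in each direction per strain comparison. Members and lists were chosen with earlier results of these data known. The fits were tested on simulated data. Alternatives were median centring, quantile normalization, normexp with an offset of 50, no filter on dim probes, the series table, 1 probe per gene name, slide or replicate number as a block, the left-out array kept, and each array left out. With the slide as a block, strain differences were fitted over all groups rather than per tissue, so the spread used changed as well. Promoter windows came from RefSeq, GRCm38.p6.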

Additional observations from a re-analysis of the deposited data

Results flagged for a closer look

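In 10 of the 159 gene and group pairs with 4 arrays, 1 array stood apart from the other 3, where chance gives about 1 in 20, and B6 muscle, with 3 arrays, was not examined in this way. In NZO muscle, Crot was 2.45 on array 009, Hadha 3.16 on 003, Hsd17b4 4.73 on 011 and Acot2 -1.32 on 011, each below its other 3 arrays. Acad10 was 3.65 on NZO BAT 011, below the others. B6 gWAT 015 was low for Acadvl, at 6.55, and Hadha, at 2.11, and high for Acot1, at 1.71 against -1.80 to -1.23 on the others. Decr1 was high on B6 BAT 010, at 9.30, and Acot1 low on B6 BAT 009, at -0.10 against 1.99 to 2.22.

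The strain difference differed between tissues by a direct test for 14 gene and tissue pairs. Between BAT and gWAT these were Cpt1b (-3.41), Acot11 (-2.73), Decr2 (-0.97), Hadha (-0.83), Hadhb (-0.80) and Acad10 (0.45). Between muscle and gWAT they were Cpt1b (-3.47), Acot11 (-2.52), Hadhb (-0.91), Acot2 (0.78), Acadl (0.68) and Acad10 (0.53), and between muscle and BAT Acox2 (4.98) and Decr2 (0.89).

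On the B6 muscle array left out of the comparisons, Cpt1a was 2.33 against 0.50 to 1.12 on the other B6 muscle arrays, and Ehhadh was 1.23 against 0.03 to 0.45. Of the 32 genes, 7 lay above the other 3 arrays there, 19 below and 6 within.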

How the results depend on the processing

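No called strain difference of a fatty acid oxidation gene, and no called change of it between tissues, reversed sign under an alternative. The same held for the tissue differences of these genes that are given above with an SE. Whether the other called tissue differences, or those of the other pathway genes, changed sign was not tested. Uncalled strain differences near 0 did change sign. With the left-out array kept, the muscle differences of Acadvl, Acox3 and Acaa1b were 0.11, 0.11 and -0.06, in place of -0.04, -0.05 and 0.05. The cause of the changes below was not tested. In gWAT the count of 10 called genes was 6 (6 higher, 0 lower) with median centring, 5 (3 higher, 2 lower) with no filter on dim probes, 14 (5 higher, 9 lower) with quantile normalization, and 5 to 9 with an array left out. Crat, Acot2 and Acot3 also lost their calls with median centring (adjusted p = 0.375, 0.386 and 0.0518), and Acot3 and Acot11 with the slide as a block (adjusted p = 0.139 and 0.187). In BAT the count of 4 was 1 (0 higher, 1 lower) with the replicate block, where Acadl (-0.68) and Decr2 (-0.49, adjusted p = 0.287) were not called, and 3 to 4 with an array left out. All probes called in BAT numbered 703 with that block and 4430 without it. In BAT the replicate block joins NZO and B6 arrays of the same number, though these come from different mice. Only numbers 009 and 011 occur in both strains there, so the difference rested on those arrays, with few residual degrees of freedom. In muscle the count of 1 was 0 in limma with no filter on dim probes (Acot11 at adjusted p = 0.0551), 2 (1 higher, 1 lower) with the slide as a block, and 0 to 1 with an array left out. All genes called in muscle numbered 2149, and 1246 with median centring. Between muscle and BAT the count of 2 was 4 with quantile normalization and 1 with median centring, no filter, the slide as a block or the left-out array kept, and 1 to 2 with an array left out. All genes called there numbered 1264, and 551 with median centring. Of all called genes there, 43.7% were upward, against 53.5% with median centring. For muscle minus gWAT the count of 6 was 3 to 6 and for BAT minus gWAT 5 to 7 with an array left out, and each was 9 with quantile normalization (6 upward, 3 downward for muscle minus gWAT and 3 upward, 6 downward for BAT minus gWAT). Upward genes were 46.5% of all called for BAT minus gWAT, against 23.3% with median centring, and 39.1% for muscle minus gWAT, against 17.7% with median centring and 50.8% with quantile normalization. For the tissue comparison of muscle with gWAT, members split as 11 higher and 13 lower in NZO and 11 and 15 in B6 with quantile normalization, and 61.6% of all called genes in B6 were higher with normexp. The replicate block could not be fitted for the strain differences in gWAT and muscle, for lack of residual degrees of freedom. Signals near background limit Acox2, Acot3 and Fgf21. The size of the Cpt1c tissue differences also depended on the alternative, as given above.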

Other observations

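Ehhadh, the peroxisomal bifunctional enzyme, and Acot1, the cytosolic thioesterase, varied among the brown fat arrays of both strains, and their strain differences there did not pass. Ehhadh lay at 4.24, 1.92, 3.33 and 4.33 in NZO BAT, against 4.31, 5.04, 4.32 and 3.03 in B6 BAT. Acot1 lay at 1.19, -0.80, -0.16 and 1.17 in NZO BAT, against 1.99, 2.22, 2.12 and -0.10 in B6 BAT. NZO 011 was the lowest NZO array and B6 009 the lowest B6 array for both genes.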
